A study of Mus musculus with 96 samples.

Results

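The Obox genes encode homeodomain proteins and lie in a cluster on mouse chromosome 7. Obox1, Obox2, Obox3, Obox5, Obox6 and Obox7 were followed here by name, and 6 of these 6 symbols were found among the 36935 gene symbols of the count table. Another 2 symbols of the table begin with Obox, Obox8 and Obox4-ps35, and they are given beside the 6 members. As background, the homeodomain proteins of the OTX and CRX type, to which the Obox proteins are related, bind short DNA sites with a TAAT or GGATTA core. Obox1, Obox2, Obox5 and Obox7 are known in the mouse as maternal genes, with transcripts stored in the oocyte, and Obox3 as a gene transcribed in the early embryo. Together these factors are needed for activation of the embryo's genome at the 2-cell stage.

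RNA was measured in 96 single-cell libraries from a mouse line with the P620A variant of PADI6, a protein that oocytes store. The labels name MII oocytes, that is ovulated eggs arrested at metaphase II, of the genotypes Padi6P620A/P620A and Padi6+/+, and single blastomeres of 2-cell embryos of the genotypes Padi6MatP620A/+ (variant inherited from the mother) and Padi6+/+. A further set of wells is labelled negative control. All eggs came from females 4 to 8 weeks old that had received PMSG and hCG, and all 2-cell embryos from in vitro fertilisation with sperm of males 8 to 12 weeks old. Cumulus cells were removed with hyaluronidase, the zona of the embryos was dissolved and the polar body was discarded. Polyadenylated RNA was caught on beads, copied with template switching, amplified and tagmented. Since the labels tie no library to an animal, a group stands for 1 sample only and differences are given without p-values.

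A library was kept with at least 100000 counts and 4000 detected genes, which left 79 of 96. Kept libraries were classed by 2 transcripts. Mos, the kinase that holds the egg at metaphase II, at 100 or more counts per 1000000 (CPM) made a library oocyte-like. Less Mos with a count of Zfp352, which is transcribed in the 2-cell embryo, made it 2-cell-like. There were 39 2-cell-like and 39 oocyte-like libraries, and 1 kept library was neither. That one, library 86 under the label 2-cell Padi6MatP620A/+, had 0 counts of all 6 members, 3.79 CPM of the oocyte markers and 6353 CPM of cumulus and granulosa markers. These classes ran against many labels. The 2-cell-like class held 11 libraries labelled 2-cell Padi6MatP620A/+, 19 labelled MII oocyte Padi6P620A/P620A, 7 labelled MII oocyte Padi6+/+ and 2 labelled negative control, and 0 labelled 2-cell Padi6+/+. The oocyte-like class held 9, 0, 12, 4 and 14 libraries of the same labels in that order. The classes are therefore not groups of the study, and a genotype label that is printed here is not known to be right.

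Library totals ranged from 503644 to 3185910 counts (median 1608305) in 2-cell-like libraries and from 162539 to 5762563 counts (median 3235838) in oocyte-like ones. Transcripts of other genes bore on the class names. The 12 oocyte markers summed to 9623 to 20122 CPM in 2-cell-like libraries and to 5376 to 77643 CPM in oocyte-like ones, with 0 markers missing from either class. The 29 markers of 2-cell activation in the table summed to 321 to 8856 CPM in 2-cell-like libraries and to 26.3 to 315 CPM in oocyte-like ones, where 12 of the 29 had 0 counts. The 16 cumulus and granulosa markers, genes of the somatic cells around the egg, summed to 0 to 162 CPM in 2-cell-like libraries (3 of 16 at 0: Hsd17b1, Foxl2 and Ptx3) and to 11.5 to 9964 CPM in oocyte-like ones. The 6 oviduct markers summed to 0 to 254 CPM and 0.978 to 28026 CPM in the same order.

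Copies in this family resemble each other closely, which limits how well reads can be assigned. Stretches of promoter from RefSeq (GRCm38.p6) are shown to give an impression of this likeness; they were found for Obox1, Obox2, Obox3, Obox5 and Obox7. Capitals mark the positions at which the copies differ. The stretches lie at chr7:15547118-15547248 (plus strand) for Obox1, chr7:15388809-15388856 (plus) for Obox2, chr7:15750219-15750349 (plus) for Obox5, chr7:14659583-14659713 (plus) for Obox7 and chr7:15639797-15639927 (minus) for Obox3. That of Obox2 is shorter because its annotated start lies further upstream in the shared stretch.
Obox1: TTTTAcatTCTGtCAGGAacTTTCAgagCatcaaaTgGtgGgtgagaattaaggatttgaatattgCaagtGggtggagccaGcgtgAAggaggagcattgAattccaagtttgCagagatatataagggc
Obox2: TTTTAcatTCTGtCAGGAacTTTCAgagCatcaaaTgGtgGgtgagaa
Obox5: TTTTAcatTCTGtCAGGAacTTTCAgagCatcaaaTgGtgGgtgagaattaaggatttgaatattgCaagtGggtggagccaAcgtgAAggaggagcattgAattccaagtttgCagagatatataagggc
Obox7: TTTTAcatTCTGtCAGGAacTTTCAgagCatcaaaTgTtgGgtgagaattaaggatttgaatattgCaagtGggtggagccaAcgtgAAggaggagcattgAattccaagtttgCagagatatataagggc
Obox3: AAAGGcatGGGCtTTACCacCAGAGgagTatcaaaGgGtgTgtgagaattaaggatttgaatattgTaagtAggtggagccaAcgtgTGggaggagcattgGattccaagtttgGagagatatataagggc

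Obox5 shared 99.2% of the 131 bases with Obox1 and 99.2% with Obox7, and Obox2 shared 48 of its 48 bases with Obox1. Obox3 shared 46.3% with Obox5 in the first 41 bases and 93.3% in the other 90. The stretches were chosen by 11-letter words common to most of these promoters, and the split lies at the first such word in Obox3. High likeness of the stretches, and the rise at the split, are therefore partly set by this choice. TATATAA, searched on both strands of the windows from 250 bases before to 50 after the start, was present in Obox1, Obox3, Obox5 and Obox7 and in 3.24% of 32851 promoters. In these copies it lies near the end of the shared stretch. The window of Obox2 ends before that part, so whether Obox2 holds it there was not searched. GGATTA was present in Obox3 alone of the 5 and in 7.06% of all promoters. A match of letters is a description and not a binding site.

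In the transcripts themselves (GENCODE M21), 47.2% of the 75-base stretches of Obox1 were also found in Obox2, and 52.6% of those of Obox2 in Obox1. Stretches unique to the gene made 94.0% for Obox5, 93.5% for Obox7, 87.7% for Obox3 and 98.7% for Obox6. At 150 bases the unique shares were 65.9% for Obox1 and 61.8% for Obox2. Read length and the treatment of reads with several matches are not given in the sources used here, so single values of Obox1 and Obox2 are uncertain, while the other members rest mostly on stretches of their own.

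**Figure D1:**
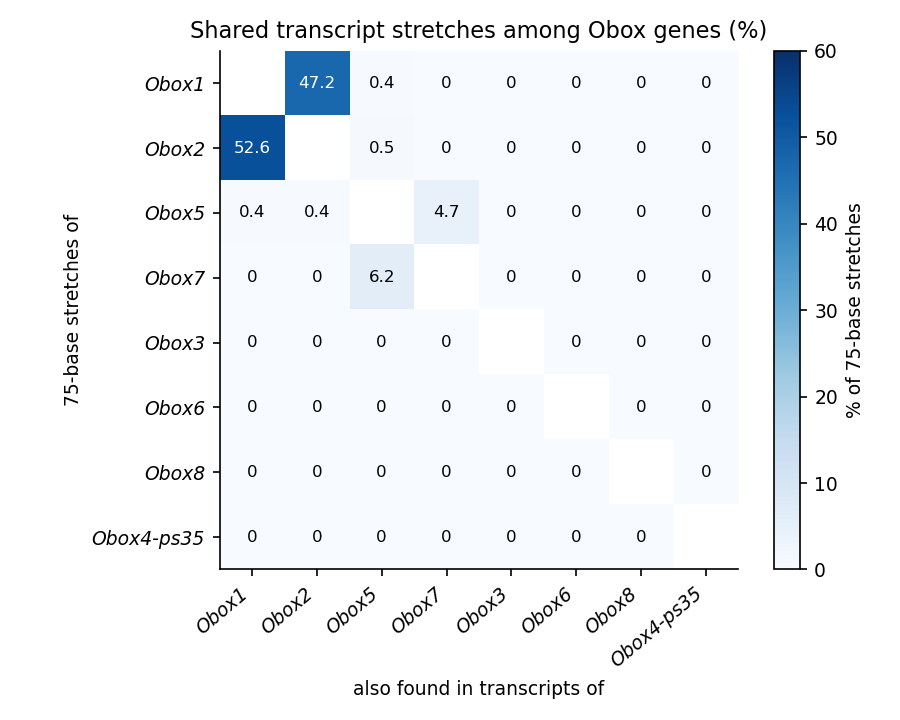
Share of the 75-base stretches of each gene (rows) that also occur in transcripts of another Obox gene (columns), in percent. Obox1 and Obox2 share about equal parts of each other, at 47.2% and 52.6%, and other pairs share little.

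In 2-cell-like libraries as a whole, Obox2 was far lower than in oocyte-like ones, Obox6 was higher from near 0, and Obox1, Obox5 and Obox7 lay within 2-fold. A gene was compared where its pooled level (summed counts over summed totals) reached 10 CPM in 1 class and at least 50% of the libraries of the higher class had a count. A difference of at least 2-fold was then called. Of 5 members that passed, 2 were called, against 48.7% of the 9677 genes compared (20.9% higher and 27.8% lower). A share near this background is not a result about the family, so the members are described 1 by 1.

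Obox2 ranged from 1.15 to 418 CPM (median 93.2) in 2-cell-like libraries and from 306 to 5031 CPM (median 1306) in oocyte-like ones. In 37 of 39 2-cell-like libraries it lay below every oocyte-like one, and the other 2 fell in the oocyte-like range. The pooled level was 123 CPM in 2-cell-like and 1496 CPM in oocyte-like libraries, 12.2-fold lower (counting interval 11.9 to 12.4). Such intervals cover counting error only, since each library is 1 cell and the labels name no animal. The protocols name no molecular identifiers, so amplified copies may be counted more than once and the intervals may be too narrow. A log2 ratio of -3.60 in all libraries became -3.73 without the libraries that held 1000 CPM or more of cumulus and granulosa markers.

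Obox5 ranged from 1289 to 5048 CPM (median 2783) in 2-cell-like libraries and from 261 to 3858 CPM (median 1432) in oocyte-like ones. It was the highest member in every 2-cell-like library by the share of counts, with 7 of them above every oocyte-like library. Pooled levels were 2888 CPM in 2-cell-like and 1593 CPM in oocyte-like libraries, 1.81-fold higher (1.80 to 1.83), which is under the 2-fold call.

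Obox1 ranged from 105 to 854 CPM (median 378) in 2-cell-like libraries and from 70.2 to 1841 CPM (median 595) in oocyte-like ones, and all 39 2-cell-like libraries lay within the oocyte-like range. The low end of that range was set by library 61 alone, which held 9964 CPM of cumulus and granulosa markers. The next lowest oocyte-like library, library 59, had 321 CPM, above the lower quartile of 305 CPM in 2-cell-like libraries. Pooled levels were 451 CPM in 2-cell-like and 711 CPM in oocyte-like libraries, 1.57-fold lower (1.55 to 1.60). Obox7 ranged from 0 to 257 CPM (median 74.8) in 2-cell-like libraries, where 36 of 39 held a count, and from 16.4 to 416 CPM (median 150.3) in oocyte-like ones, where 39 of 39 did. Pooled levels were 90.1 CPM in 2-cell-like and 160.2 CPM in oocyte-like libraries, 1.78-fold lower (1.73 to 1.83), and TMM scaling, which moved the median log2 ratio of all genes by -0.22, put it past 2-fold at a log2 ratio of -1.05.

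**Figure D2:**
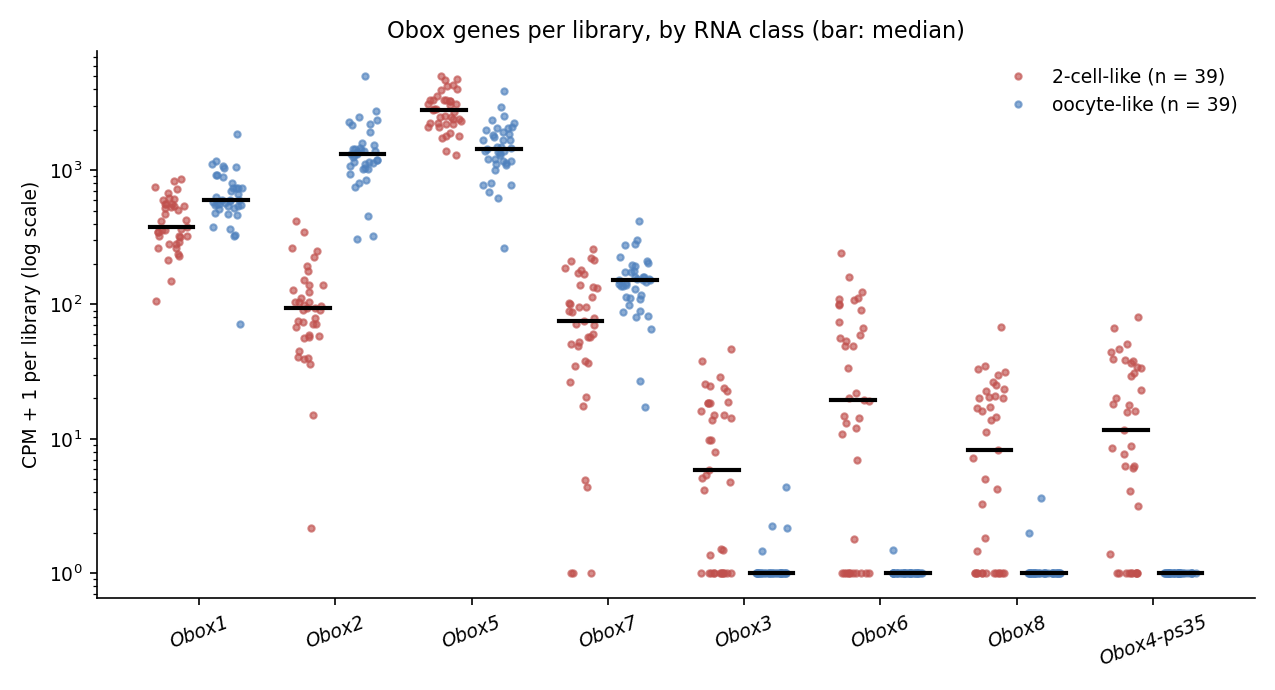
Level of 8 Obox genes in each library, in CPM with 1 added on a log axis, with 2-cell-like libraries (red, n = 39) to the left of oocyte-like ones (blue, n = 39) and bars at the medians. Obox2 is low in nearly all red libraries, Obox3, Obox6, Obox8 and Obox4-ps35 are at or near 0 in nearly all blue ones.

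Within a library, the ratio of one member to another does not depend on the library's total. The sum of the 6 members had a median of 3485 CPM in 2-cell-like libraries and 3487 CPM in oocyte-like ones, while its make-up differed. Obox5 made 65.3% to 91.3% (median 81.1%) of the members' counts in 2-cell-like libraries and 27.4% to 50.8% (median 40.2%) in oocyte-like ones. Obox2 made 0.0356% to 13.3% (median 2.42%) in 2-cell-like libraries and 20.3% to 50.6% (median 38.5%) in oocyte-like ones.

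For both shares, 39 of 39 2-cell-like libraries lay on 1 side of every oocyte-like one. Both are parts of 1 sum, so they are not separate results, and no background over all genes was taken for them. By CPM, Obox5 lay within the oocyte-like range in 32 of 39 2-cell-like libraries. Obox2 over Obox5 had a median of 0.0315 (0.000404 to 0.191) in 2-cell-like libraries and 0.933 (0.399 to 1.85) in oocyte-like ones, 29.7-fold lower, with no overlap. Taken relative to Obox5 in the same way, 0.806% of 9676 other genes had classes that did not overlap. By CPM, 0.434% of 9677 genes did so, which did not include Obox2 or Obox5. Obox2 over Obox1, the pair that shares most sequence, had a median of 0.204 in 2-cell-like libraries and 2.15 in oocyte-like ones, and 37 of 39 lay below every oocyte-like library.

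**Figure D3:**
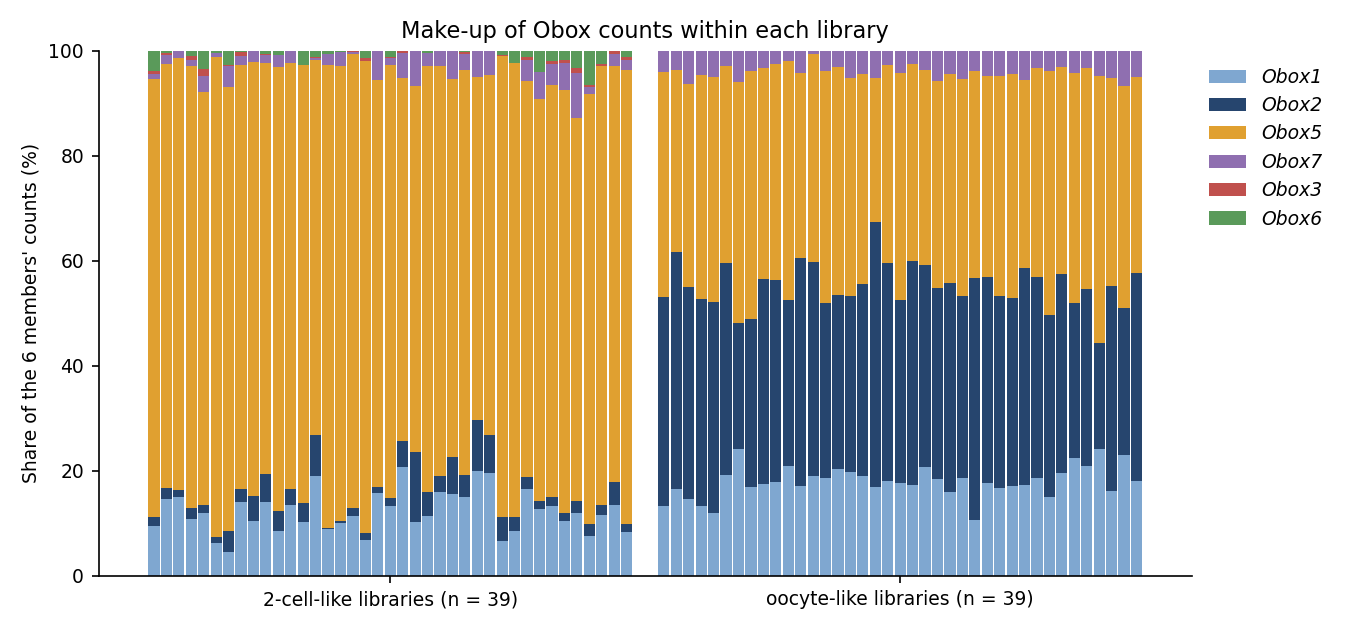
Share of each of the 6 members in their summed counts (percent, stacked bars of 1 library each), 2-cell-like libraries on the left and oocyte-like ones on the right. Obox2 (dark blue) makes a median of 2.42% of the left bars and 38.5% of the right ones, and Obox5 (orange) 81.1% and 40.2%.

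**Figure D4:**
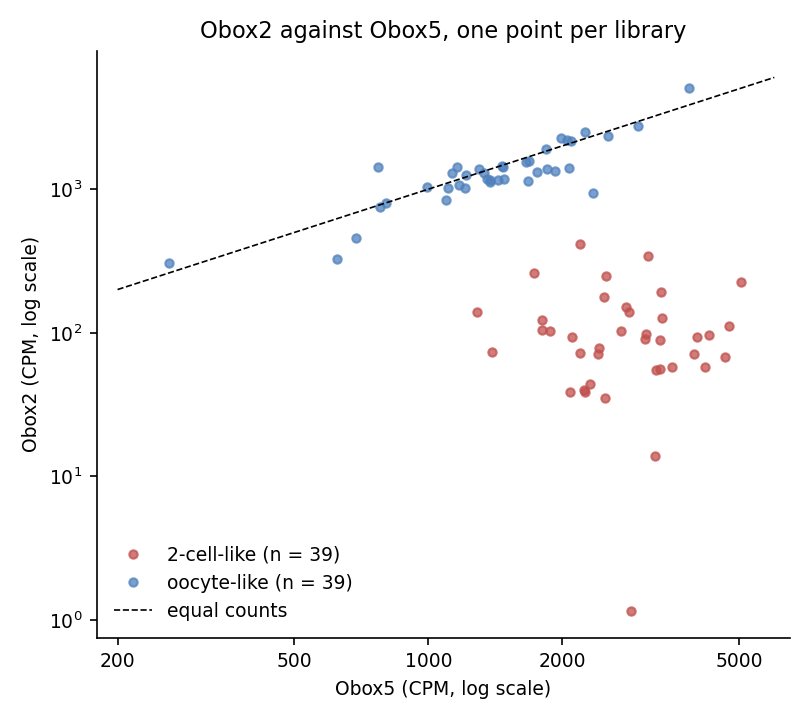
Obox2 against Obox5 in CPM, both on log axes, with 1 point for each library and a dashed line at equal counts. The 2-cell-like points (red) lie below the line by more than any oocyte-like point (blue).

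Levels of different genes were compared per kilobase of exon. In 2-cell-like libraries the medians were 1303 CPM per kb for Obox5, 199 for Obox1, 56.6 for Obox2, 46.7 for Obox7, 13.7 for Obox6 and 1.52 for Obox3. Obox5 was above Obox1 in 39 of 39 libraries and Obox1 above Obox2 in 37. Obox2 was above Obox7 in 27, Obox7 above Obox6 in 28 and Obox6 above Obox3 in 26, so the order of these last pairs varied between libraries. In oocyte-like libraries the medians were 794 CPM per kb for Obox2, 670 for Obox5, 313 for Obox1 and 93.8 for Obox7, and 0 for Obox3 and Obox6. There Obox2 was above Obox5 in 30 of 39 libraries, and Obox5 above Obox1 and Obox1 above Obox7 in 39 of 39.

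Obox3 and Obox6 were found chiefly in 2-cell-like libraries. Obox6, which in the mouse is known to aid reprogramming of fibroblasts, ranged from 0 to 242 CPM (median 18.4) in 2-cell-like libraries and from 0 to 0.490 CPM (median 0) in oocyte-like ones. A count was present in 28 of 39 2-cell-like libraries (71.8%, exact Clopper-Pearson interval 55.1% to 85.0%) and in 1 of 39 oocyte-like ones, library 91 (2.56%, interval 0.0649% to 13.5%). The pooled ratio rested on 2 oocyte-like counts and was 2164 (598 to 17876). Without library 91 it was 1390, taking 3 counts as the floor over the class. Obox3 ranged from 0 to 45.7 CPM (median 4.86) in 2-cell-like libraries and from 0 to 3.35 CPM (median 0) in oocyte-like ones, with a count in 27 and 4 libraries in that order. Its pooled levels of 8.28 CPM in 2-cell-like and 0.188 CPM in oocyte-like libraries, a ratio of 44.1 (28.6 to 71.9; 89.9 without library 9), did not reach the 10 CPM needed for a call.

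Depth differed between the classes. With each library thinned to 100000 counts, Obox6 was detected in 23 2-cell-like and 0 oocyte-like libraries, and Obox3 in 16 and 1. The other symbols were alike. Obox8 had a count in 26 of 39 2-cell-like and 2 of 39 oocyte-like libraries, a pooled ratio of 92.1 (54.5 to 169; 311 without library 18). Obox4-ps35 is marked by its symbol as a pseudogene copy of Obox4. It had a count in 29 of 39 2-cell-like libraries and 0 counts in oocyte-like ones. With the floor used for a class without counts, Obox4-ps35 was 571-fold higher (lower limit 464).

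The 4 low genes varied between 2-cell-like libraries. Of 39, 16 held a count of all 4 of Obox3, Obox6, Obox8 and Obox4-ps35, 7 held 3 of them, 10 held 2, 5 held 1 and 1 held none. By label, all 4 were found in 6 of 11 libraries labelled 2-cell Padi6MatP620A/+, 5 of 19 labelled MII oocyte Padi6P620A/P620A, 5 of 7 labelled MII oocyte Padi6+/+ and 0 of 2 labelled negative control. Obox6 had medians of 73.4, 9.80, 54.8 and 0 CPM under those labels, and Obox3 had medians of 17.5, 0.516, 13.3 and 0 CPM. Zscan4d, a 2-cell burst gene, had medians of 296, 81.5, 255 and 17.8 CPM in the same order. Obox8 had medians of 10.2, 7.20, 15.1 and 1.63 CPM in that order. Across the 39 libraries, Obox3 correlated with Zscan4d at a Spearman rho of 0.54 and with Obox4-ps35 at 0.59, and with the library total at -0.40. Of 7299 genes set beside Obox3, 158 had a higher rho with it than Zscan4d. Obox8 did not go along with the others, at a rho of 0.04 with Zscan4d, -0.003 with Obox3 and -0.04 with Obox4-ps35. The points share the class rule and differ in depth, so these are descriptions.

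**Figure D5:**
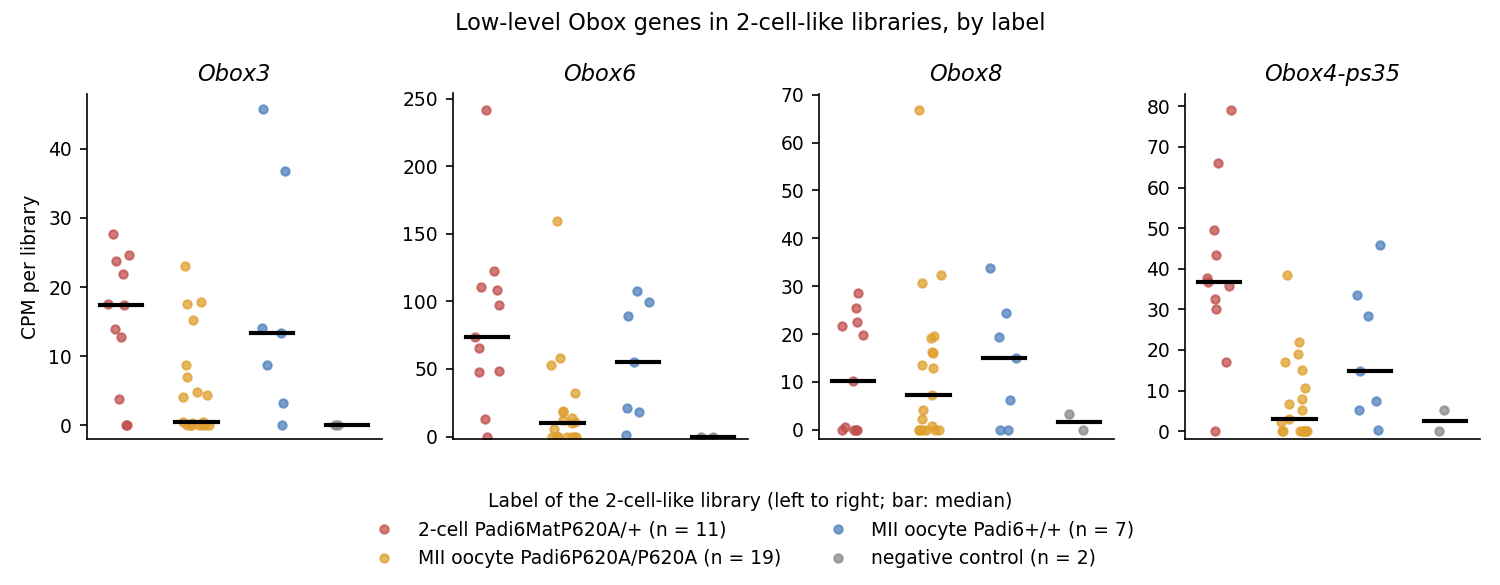
Levels in CPM of Obox3, Obox6, Obox8 and Obox4-ps35 in 2-cell-like libraries, by label in the order of the legend, with bars at the medians. Libraries labelled MII oocyte Padi6P620A/P620A (orange) have medians of 0.516 CPM for Obox3 and 9.80 CPM for Obox6.

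Levels of some members were correlated within a class. In oocyte-like libraries Obox1 and Obox5 had a Spearman rho of 0.92, Obox2 and Obox5 one of 0.74, and Obox5 and Obox7 one of 0.64 (n = 39), all over libraries that share their scaling by the library total. In 2-cell-like libraries the same pairs had 0.50, -0.05 and -0.08. The genes most like a member were named by the highest rho among 7299 genes in 2-cell-like and 8069 in oocyte-like libraries, from which the Obox symbols and those of the Gm and Rik type had been left out. For Obox3 these were Cggbp1, a CGG-repeat binding protein gene, at 0.78, Folr1, a folate receptor gene, at 0.76, and Clp1, an RNA kinase gene, at 0.75, all in 2-cell-like libraries. For Obox6 they were Nop16, Pim3 and Atp5g1, at 0.77, 0.74 and 0.72. All of these had a negative rho with the library total, from -0.20 (Folr1) to -0.51 (Cggbp1). Obox3 had -0.40 and Obox6 -0.42 with the total, and what part depth has in these values was not tested. In oocyte-like libraries Obox5 was most like Mad2l1, a spindle checkpoint gene, at 0.88, and Obox7 most like Oog3 at 0.84.

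Other homeobox and activation regulators were set beside the family. Of 36 listed early homeobox genes 20 were compared, with 6 at least 2-fold higher, 6 lower and 8 within, and a median log2 ratio of -0.11 against -0.08 for all genes. Crxos, a homeobox gene of the same wider family, had 45.5 CPM in 2-cell-like libraries and 0 counts in oocyte-like ones. With the floor of 3 counts it was 1698-fold higher (lower limit 1380), and Sebox, an oocyte homeobox gene, was 11.2-fold higher. Pou2f1, which encodes an octamer-binding factor, was 4.05-fold lower. Of 34 listed regulators of genome activation 31 were compared, with 11 higher, 3 lower and 17 within, and a median of 0.51. Of the listed 2-cell activation genes 26 were compared, with 24 higher, 0 lower and 2 within. Dppa4, a chromatin factor of early embryos, was 19.0-fold higher and Nfya, a subunit of the CCAAT factor, 2.65-fold lower. The lists describe the classes and were chosen with earlier results of these data known.

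Mutant over wild-type label asked whether the members differ with the Padi6 variant, within a class. Among oocyte-like libraries, 9 labelled mutant were set against 26 labelled wild type. Obox2 had a median of 1306 CPM under the mutant label and 1318 CPM under wild type, with a pooled ratio 1.31-fold lower (1.29 to 1.32). Obox5 had medians of 1474 and 1405 CPM, Obox1 600 and 582 CPM, and Obox7 152 and 148 CPM, in the same order. Of 4 members compared 0 were called, against 16.2% of 9093 genes (0.429% higher and 15.8% lower), and the ranges overlapped for each. Of 11 cumulus and granulosa markers compared, 9 were lower and 0 higher. What part RNA of somatic cells has in this background was not tested. All 9 mutant libraries carried the label 2-cell, while the wild-type ones were 12 labelled MII oocyte and 14 labelled 2-cell. Within the label 2-cell, a comparison added after seeing the data, Obox2 had medians of 1306 CPM in 9 mutant and 1137 CPM in 14 wild-type libraries and was 1.10-fold lower by pooled level (1.08 to 1.11). Obox1, Obox5 and Obox7 were 1.21-fold, 1.22-fold and 1.24-fold higher by pooled level. Of 4 members compared 0 were called there too, against 24.9% of 9573 genes (1.48% higher and 23.4% lower). Of 11 cumulus and granulosa markers 10 were lower there and 0 higher. Scaling by DESeq2 size factors shifted the median log2 ratio by 0.25 and gave 430 higher and 1848 lower genes, in place of 142 and 2242, with 0 members called.

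Among 2-cell-like libraries, 30 labelled mutant were set against 7 labelled wild type. Obox3 had a median of 4.61 CPM (0 to 27.6) under the mutant label and 13.3 CPM (0 to 45.7) under wild type, with a pooled ratio 1.86-fold lower (1.54 to 2.25). Without library 4 this became 2.26-fold, and it passed 2-fold without any 1 of libraries 7, 8, 40, 79 and 88 too. Obox6 had medians of 16.2 and 54.8 CPM in the same order and a pooled ratio 1.29-fold lower. Obox2 was 1.56-fold higher under the mutant label (1.45 to 1.67), at medians of 93.5 and 67.3 CPM, and Obox5 1.25-fold lower. Of 6 members compared 0 were called, against 24.9% of 8549 genes (18.6% higher and 6.32% lower), and each range under wild type overlapped that under mutant. The 30 mutant libraries were 19 labelled MII oocyte and 11 labelled 2-cell, while all 7 wild-type ones were labelled MII oocyte.

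The genotypes were therefore also compared within the label MII oocyte, 19 mutant against 7 wild-type 2-cell-like libraries, a comparison added after seeing the data. There Obox3 and Obox6 were both at least 2-fold lower under the mutant label. Obox3 ranged from 0 to 23.0 CPM (median 0.516) in mutant libraries, with a count in 12 of 19, and from 0 to 45.7 CPM (median 13.3) in wild-type ones, with a count in 6 of 7. Its pooled levels were 4.95 CPM in mutant and 14.0 CPM in wild-type libraries, 2.83-fold lower (2.27 to 3.52), and 2.18-fold to 3.48-fold lower without any 1 library. Obox6 ranged from 0 to 159.8 CPM (median 9.80) in mutant libraries, with a count in 11 of 19, and from 0.797 to 107 CPM (median 54.8) in wild-type ones, with a count in 7 of 7. Its pooled levels were 21.0 CPM in mutant and 49.9 CPM in wild-type libraries, 2.38-fold lower (2.13 to 2.66). Without wild-type library 8 it was 1.92-fold lower, under the call, and without mutant library 31 it was 4.83-fold lower. The ranges overlapped for both genes. With each library thinned to 100000 counts Obox3 was too low to compare. Obox2 was 1.81-fold higher under the mutant label, and 2.19-fold higher without library 8. Of 6 members compared 2 were called, both lower, against 29.4% of 8485 genes (19.1% higher and 10.3% lower). The count of calls taken either way lies near the background and is not a result about the members. Obox3 reached the 10 CPM needed for a call in the wild-type group alone, so it could be called only as lower. The medians of Zscan4d in these libraries, 81.5 CPM under the mutant label and 255 CPM under wild type, went the same way. Zfp352 had medians of 75.8 and 244 CPM in the same order, but a count of it is required by the class rule. Its values are therefore not separate from the choice of these libraries. Obox4-ps35 was 2.34-fold lower under the mutant label and Obox8 1.24-fold lower. Of 26 listed 2-cell activation genes compared, 9 were lower, 0 higher and 17 within 2-fold. What part this wider difference has in the Obox values was not tested.

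The labels alone imply a comparison of genotypes within each stage label, and both classes enter it. Under the label MII oocyte, Obox2 was 9.84-fold lower in Padi6P620A/P620A (1.15 to 418 CPM) than in Padi6+/+ libraries (38.9 to 5031 CPM), where 11 of 19 lay above every mutant one. It was the 1 member called of 5 compared (Obox3 was not compared), against 39.5% of 9122 genes (16.8% higher and 22.7% lower). Obox6 was 1.77-fold higher there, and 2.15-fold, 2.28-fold or 2.59-fold higher without library 2, 6 or 8, but 1.15-fold lower without library 31. With TMM scaling Obox7 was also lower, and the split of all genes moved to 1132 higher and 2481 lower. All 19 kept mutant libraries of this label were 2-cell-like and 12 of 19 wild-type ones oocyte-like. Under the label 2-cell, Obox6 had 0 to 242 CPM in Padi6MatP620A/+ libraries, with a count in 11 of 21, and 0 counts in 14 Padi6+/+ libraries. With the floor of 3 counts Obox6 was 353-fold higher (lower limit 286). It was the 1 member called of 5 compared, with Obox3 again not compared, against 19.7% of 9996 genes (7.88% higher and 11.8% lower), which is near the background. With medians or thinned counts Obox6 was not called and Obox2 was called as lower. Obox2 was 1.74-fold lower there, with 12 of 21 Padi6MatP620A/+ libraries below every Padi6+/+ one. Those 12 include library 86, which was of neither class and held 0 counts of the members, and without it Obox2 was 1.64-fold lower, with 11 of 20 below. Of the 21 libraries 11 were 2-cell-like, 9 oocyte-like and 1 neither, against 0, 14 and 0 of those labelled Padi6+/+.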

How the data were processed

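The authors deposited raw counts per gene in 1 table of 96 libraries, in whole numbers with no normalization. Reads were trimmed with Trim Galore 0.4.4, aligned with HISAT2 2.1.0 to GRCm39 and analysed with DESeq2, per the submitters' processing notes; the counting tool, annotation and strand are not given in the sources used here. Of 36983 rows, 48 repeated a symbol and were summed. No 2 libraries held identical values.

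Counts were divided by library totals (CPM). Class levels are summed counts over summed totals, with exact conditional binomial intervals at 95% for ratios (Python 3.11.15, scipy 1.17.1); a class with no counts was set to 3 counts. Calls needed a 2-fold ratio. TMM (edgeR 4.0.16) and DESeq2 1.42.0 size factors, and other filters, were alternatives. The code was tested on simulated data. Members and lists were chosen with earlier results of these data known. Named genes are the members, other Obox symbols, Padi6, Mos, Zfp352, the extreme 3 each way per list, and the 3 most similar genes per member; the text gives a part. Zscan4d was added as a 2-cell burst gene.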

Additional observations from a re-analysis of the deposited data

Results flagged for a closer look

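Of 16 groups of 4 to 10 libraries tested for a value far from the others, 2 had one, where chance gives about 1 in 20 for values that are not mostly 0. In both groups all other libraries were at 0, so any count would have been set apart, and the values rest on few counts. Obox6 had 0.490 CPM in library 91, labelled 2-cell Padi6MatP620A/+, the highest of 9 oocyte-like libraries of that label, of which the other 8 had 0 counts. Obox3 had 1.24 CPM in library 96, labelled negative control, the highest of 4 oocyte-like libraries of that label, of which the other 3 had 0 counts. Among the 17 libraries left out by the filter, 6 held more than 3 counts of Obox members, and the highest was library 1 with 17694 counts. What sets these values apart was not tested.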

How the results depend on the processing

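Between 2-cell-like and oocyte-like libraries, Obox6 higher and Obox2 lower were called under all alternatives run; TMM factors added Obox7 as lower and no filter added Obox3 as higher, 3 members each. Leaving out 1 library gave 2 to 2 calls. The Obox6 log2 ratio was 11.1. It was 8.11 with Mos at 50 CPM, where library 73 (63.3 CPM of Mos, 14 counts of Obox6) became oocyte-like. With thinned counts it was 5.95, where 0 oocyte-like libraries held a count and the floor of 3 counts was used. From medians, with 1 CPM added in each class, it was 4.28. Among 2-cell-like libraries, the mutant over wild-type count of 0 became 1 with DESeq2 size factors (Obox3 lower) and 2 with medians (Obox3 and Obox6 lower) and 2 within 1 stage label (the same genes), and 0 to 1 without 1 library. Among oocyte-like libraries it was 0 to 0. Under the label MII oocyte, 1 became 2 with TMM factors, and 1 to 2 without 1 library. Under the label 2-cell, 1 became 2 with means of CPM (Obox2 lower added) and with no filter (Obox3 higher added), and medians and thinning called Obox2 as lower in place of Obox6, with 1 to 1 without 1 library. The cause of these changes in calls was not tested. A single-gene value counted as kept if it stayed inside the counting interval of the main ratio, and as moved if not. Of these values, leaving out a library kept 1042 and moved 295, and other settings kept 175 and moved 136. The interval is narrow for members with many counts, so small shifts count as moved there, and these numbers do not measure the size of changes. No called direction reversed. No paired analysis was possible because the groups share no replicate numbers. Of 8 wells labelled negative control, 6 held libraries that passed the filter. The other 2, libraries 71 and 72, held 1857 and 542 counts in all, and 0 and 2 counts of Obox members, too few to measure free RNA, so low values of Obox3 and Obox6 in oocyte-like libraries have no empty-well level beside them.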
